A study of Mus musculus with 6 samples.

Results

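REDD1, the sestrins and their partners act as brakes on mTORC1, the kinase complex that drives protein synthesis and cell growth when nutrients, growth factors and energy are in supply. The set was fixed by name and holds 10 genes: Ddit4 (REDD1), the sestrin genes Sesn1, Sesn2 and Sesn3, Tsc1, Tsc2, Rheb, the 4E-BP genes Eif4ebp1 and Eif4ebp2, and Deptor. All 10 had a feature of their own on the array, of 30176 genes tested. Microglia are macrophages that live in the brain. Primary cultures came from newborn pups of the outbred CD1 strain and were kept for 6 h at 1% oxygen (hypoxia) or 21% oxygen (normoxia). Each of the 3 cultures, numbered 3, 4 and 6 in the labels, pooled 5 mice and gave 1 array per condition, so there were 3 hypoxia and 3 normoxia arrays. The labels give no allele, drug or other agent that distinguished the groups.

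mTORC1 is switched on at the lysosome by the small GTPase RHEB, and the TSC1-TSC2 complex holds RHEB in its inactive form. REDD1 acts through TSC1-TSC2 and is required for the loss of mTORC1 activity in hypoxic mouse fibroblasts, whereas sestrins act on the GATOR complexes that pass on amino acid supply. The 4E-BPs bind the cap-binding factor eIF4E and hold back translation until mTORC1 phosphorylates them, and DEPTOR binds the kinase itself. In mouse microglia, mTOR signalling is known to sustain energy metabolism downstream of the receptor TREM2.

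Total RNA was measured on one-colour Affymetrix arrays, and values are log2 intensities as deposited, with array medians between 5.84 and 5.92. Over all genes, arrays of one condition correlated at 0.994 to 0.996. Differences are hypoxia minus normoxia on the log2 scale. They were tested with limma, with the culture as a block because both arrays of a culture came from the same pool of mice, and p-values were adjusted by Benjamini-Hochberg over all genes. With the block, 127 genes (0.421% of those tested) were higher in hypoxia and 35 (0.116%) lower at an adjusted p under 0.05. Without the block, 63 (0.209%) were higher and 5 (0.0166%) lower. The hypoxic treatment was visible in genes known to answer HIF, the hypoxia-inducible transcription factor. All 8 such genes examined were higher with the block, from Ldha (0.77) to Egln3 (3.30), and 6 of the 8 without it.

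Of 9 microglial markers, 0 passed the test in either direction, and their mean level was 10.91 to 10.96 in the hypoxia arrays and 10.99 to 11.03 in the normoxia arrays. Their levels ranged widely. Csf1r (12.76 in hypoxia and 12.70 in normoxia) and Cx3cr1 (11.06 and 11.21) were bright. The dimmest of the 9 were P2ry12 (9.38 in hypoxia and 9.60 in normoxia), Aif1 (8.73 and 8.86) and Tmem119 (8.49 and 8.43). Markers of fibroblasts and pericytes were above 0 for 9 of 9 genes, with a median difference of 0.41, and Col1a1 and Col3a1 passed with the block (adjusted p = 0.0460 and 0.0453 from limma) but not without it (0.643 and 0.653). Their mean level ran from 7.49 to 8.53 in hypoxia and from 7.01 to 8.26 in normoxia, with culture 3 highest in both conditions. Of 6 astrocyte, 5 oligodendrocyte lineage, 6 endothelial and 6 neuronal markers 0 passed, with median differences of 0.11, 0.07, 0.14 and 0.10 in that order. Their mean levels in hypoxia were 5.86 to 6.11, 7.36 to 7.58, 6.41 to 6.65 and 6.06 to 6.27. In normoxia they were 5.68 to 5.97, 7.31 to 7.37, 6.14 to 6.56 and 6.05 to 6.11. Over all genes, the dimmest of 4 equal groups and the next one each had a median difference of 0.06. The part of these other cell types in the results below was not tested. In whole cultures, fewer cells of a type and less RNA per cell cannot be told apart.

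The sequences before the start sites of the genes whose arrays separated by condition are shown here, so that they can be set beside the values that follow. Windows of 250 bases came from RefSeq (GRCm38.p6) and were found for 8 of the 10 genes, all but Eif4ebp1 and Deptor, with 9 windows in all because Sesn1 has 2 annotated starts. Capitals mark matches, on either strand, to ACGTG or GCGTG, the forms of the core that HIF binds, or to CACGTG, the E-box, which contains ACGTG. Eif4ebp2 is added because its window held the most matches. The windows lie at chr10:59951771-59952020 (Ddit4, minus strand), chr5:24842362-24842611 (Rheb, minus strand), chr10:41810324-41810573 and chr10:41887189-41887438 (Sesn1, plus strand), and chr10:61452670-61452919 (Eif4ebp2, minus strand). Each is written 5′ to 3′ on the strand of its gene and ends at the base before the start used for the window. For Eif4ebp2 that start lies inside the annotated span of the gene, which reaches chr10:61452790, so part of the window overlaps the gene. The window of the downstream start of Sesn1 lies wholly inside the annotated span of that gene, chr10:41810574-41908436. The windows of Tsc1 and Tsc2, not printed, also overlap the annotated spans of these genes.
Ddit4: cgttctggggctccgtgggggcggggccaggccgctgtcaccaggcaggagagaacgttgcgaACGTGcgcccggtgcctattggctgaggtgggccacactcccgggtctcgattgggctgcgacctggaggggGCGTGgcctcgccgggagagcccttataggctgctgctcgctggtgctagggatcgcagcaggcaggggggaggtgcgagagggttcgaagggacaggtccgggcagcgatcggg
Rheb: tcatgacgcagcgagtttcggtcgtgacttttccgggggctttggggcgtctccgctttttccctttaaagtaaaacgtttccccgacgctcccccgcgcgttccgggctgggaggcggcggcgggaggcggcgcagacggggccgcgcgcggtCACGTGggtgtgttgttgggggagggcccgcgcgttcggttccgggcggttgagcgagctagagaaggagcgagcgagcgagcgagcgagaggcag
Sesn1, upstream start: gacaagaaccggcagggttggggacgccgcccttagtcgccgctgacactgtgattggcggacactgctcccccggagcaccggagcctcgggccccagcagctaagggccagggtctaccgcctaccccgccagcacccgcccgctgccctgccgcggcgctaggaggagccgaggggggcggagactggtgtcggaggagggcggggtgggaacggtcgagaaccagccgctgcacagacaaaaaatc
Sesn1, downstream start: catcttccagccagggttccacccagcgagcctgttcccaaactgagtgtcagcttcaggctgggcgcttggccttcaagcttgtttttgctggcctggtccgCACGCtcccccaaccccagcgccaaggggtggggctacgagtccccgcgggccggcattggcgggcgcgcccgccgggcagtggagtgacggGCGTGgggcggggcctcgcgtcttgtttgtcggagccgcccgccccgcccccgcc
Eif4ebp2: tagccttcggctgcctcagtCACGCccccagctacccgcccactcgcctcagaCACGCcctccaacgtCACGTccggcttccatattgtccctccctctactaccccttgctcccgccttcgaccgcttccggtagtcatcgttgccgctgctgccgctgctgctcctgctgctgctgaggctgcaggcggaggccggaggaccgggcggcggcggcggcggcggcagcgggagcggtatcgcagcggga

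The Ddit4 window held 1 ACGTG, with its first base at -187 counted from the start, and 1 GCGTG, with its first base at -115. The only match at Rheb was a CACGTG from -96 to -91, which reads as ACGTG on both strands. The downstream start of Sesn1 had 2 GCGTG matches, and the upstream start had none. Eif4ebp2 had 3 matches, 1 ACGTG and 2 GCGTG. Tsc1 and Tsc2 had 1 GCGTG each, and the windows of Sesn2 and Sesn3 had 0. Such short words are common: of 32851 windows of this length in the table, 38.6% held ACGTG or GCGTG (16.6% ACGTG and 28.2% GCGTG) and 6.02% held CACGTG. Searches for TGATGNAA, a word bound by ATF4, and GTAAACA, a word bound by FOXO factors, found 0 matches in the 9 windows, against 3.45% and 3.17% of all windows. A match is a description of the letters and not a measure of binding.

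**Figure D1:**
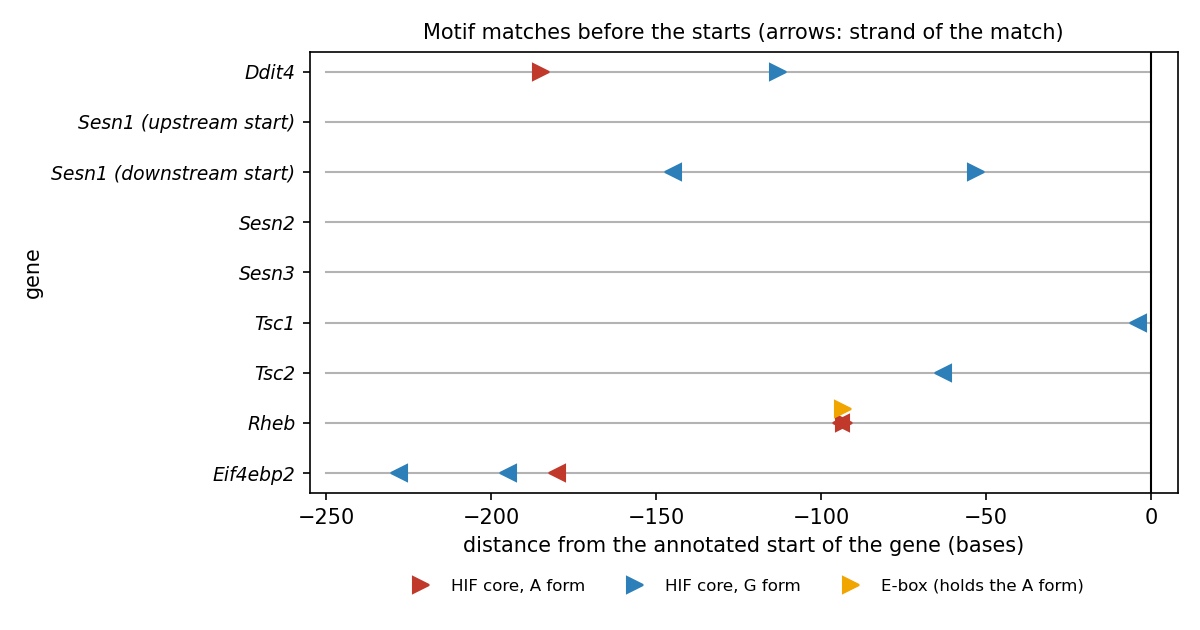
Position of motif matches in the 250 bases before the annotated starts of 8 genes, with distance from the start in bases on the x axis and 1 line per window. Ddit4 and Eif4ebp2 carry both forms of the HIF core, the overlapping marks at Rheb are the palindromic E-box, and Sesn2, Sesn3 and the upstream start of Sesn1 have no mark.

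None of the 10 genes passed the test over all genes, with or without the culture as a block. Those nearest to the threshold were Ddit4 and Eif4ebp1, which had higher values in hypoxia, and Rheb, which had lower values. Before adjustment, 5 of the 10 had a limma p under 0.05 with the block and 4 without it, against 5111 and 3133 of all 30176 genes. The arrays of the conditions did not overlap for 4 of the 10. Ddit4 and Eif4ebp1 were the 2 of 10 that lay higher in hypoxia (8.24% of all genes did so), and Rheb and Sesn1 the 2 of 10 that lay lower (7.58% of all genes). The median difference of the 10 genes was 0.08, against 0.03 over all genes, and 7 of the 10 were above 0.

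**Figure D2:**
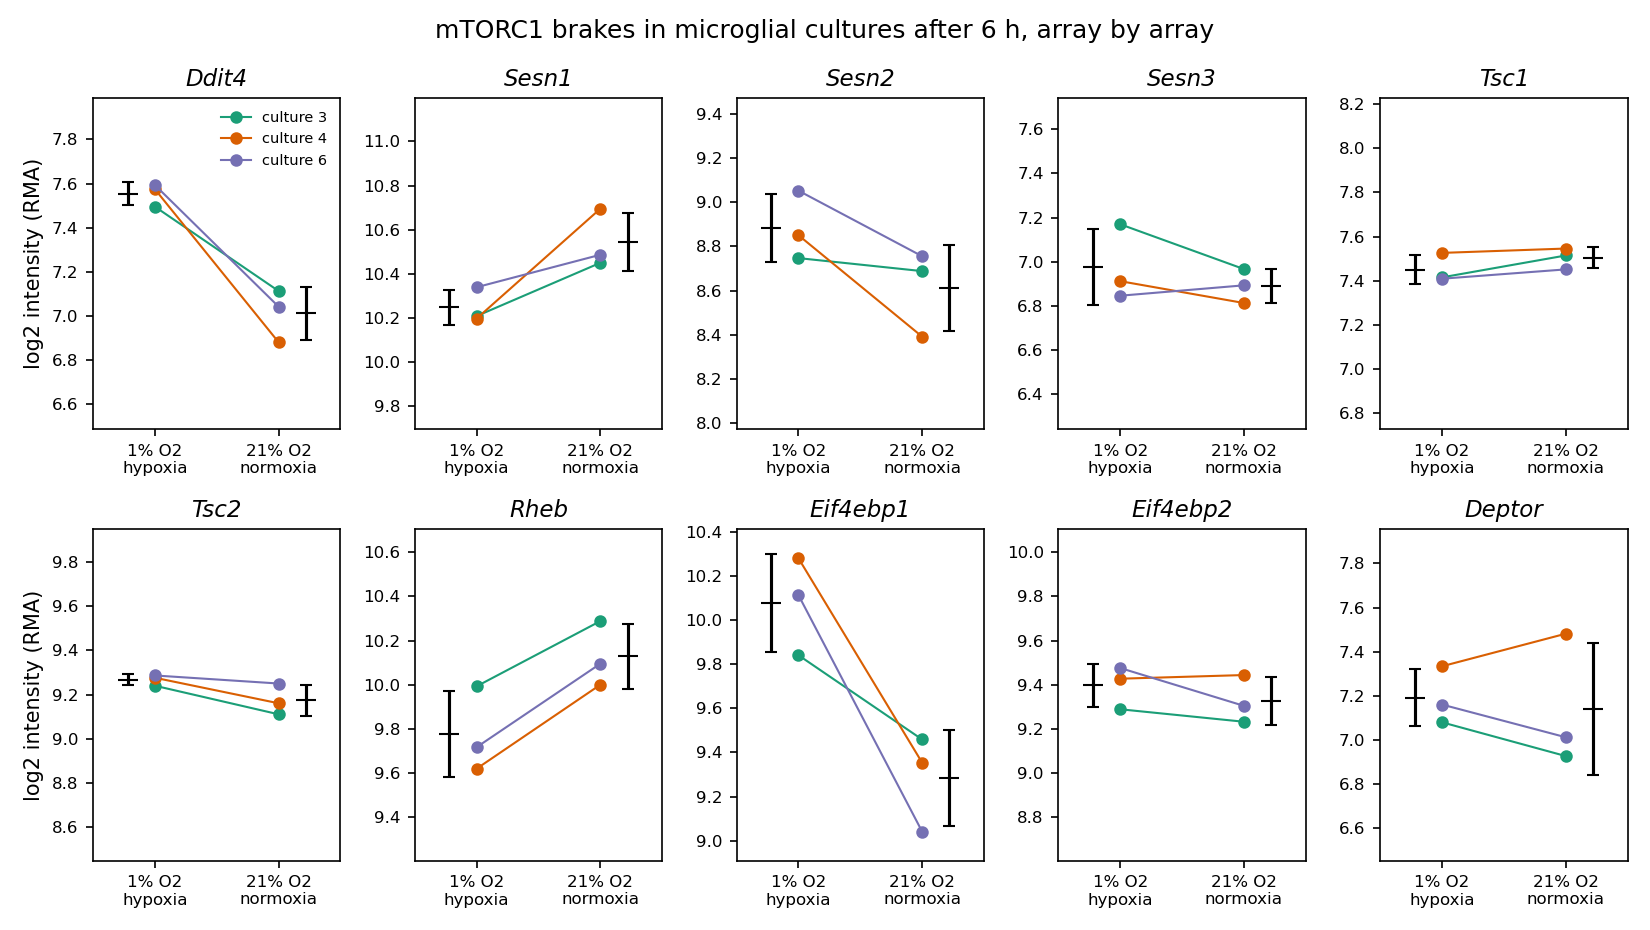
Log2 intensity (y axis, a span of equal size in every panel) of the 10 genes in each array, with hypoxia left of normoxia and a line joining the arrays of a culture; black bars are the mean ± SD of 3 arrays. The lines of Ddit4 and Eif4ebp1 lie higher at the hypoxia end in every culture and those of Rheb and Sesn1 lie lower, while those of Deptor, Sesn3 and Eif4ebp2 cross in direction.

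Ddit4 encodes REDD1, the stress-induced protein that restrains mTORC1 through TSC1-TSC2, and is annotated in GRCm38.p6 at chr10:59949675-59951770. In cultures 3, 4 and 6, its log2 intensity was 7.50, 7.57 and 7.59 under hypoxia, against 7.11, 6.88 and 7.04 under normoxia. Every hypoxia array thus lay above every normoxia array, and the differences within cultures were 0.38, 0.69 and 0.55. The mean difference was 0.54 (standard error 0.08, 95% interval 0.35 to 0.73), a fold of 1.46. It had an adjusted p = 0.0562 from limma with the block and 0.0648 without it, and its unadjusted p was 0.000363 with the block. Of all 30176 genes, 143 had a larger difference in the upward direction. The means of the 3 cultures over both conditions differed by at most 0.09, less than the difference between conditions. The adjusted p was under the threshold in 3 of the 11 alternative settings, from limma 0.0402 with dim genes left out, 0.0300 with array weights and 0.0303 with an intensity trend in the variance.

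Ddit4l, the paralog of Ddit4 that is also known as REDD2, had a mean of 5.65 ± 0.11 in hypoxia and 5.52 ± 0.07 in normoxia (SD, n = 3 each). Its difference was 0.12 (standard error 0.08, adjusted p = 0.490 from limma). Both means of Ddit4l lay below the array medians of 5.84 to 5.92. At so dim a level, a weak signal and a small response of Ddit4l cannot be told apart. The difference of Ddit4 exceeded that of Ddit4l in 3 of 3 cultures, by 0.42 on average, which 3 cultures cannot place below an exact sign-flip p of 0.25 (two-sided; 0.312 adjusted over the 5 pairs of paralogs compared).

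Eif4ebp1 encodes 4E-BP1, the repressor of cap-dependent translation, and sits at chr8:27260327-27275656. Taking cultures 3, 4 and 6 in order, log2 intensity was 9.84, 10.28 and 10.11 under hypoxia and 9.46, 9.35 and 9.04 under normoxia. The conditions did not overlap, but the cultures differed in the size of the difference, with 0.38 in culture 3, 0.93 in culture 4 and 1.07 in culture 6. The mean difference of 0.79 (standard error 0.13, 95% interval 0.47 to 1.11) was the largest of the 10 genes and corresponds to a fold of 1.73. In the upward direction, 58 of all genes had a larger one. The adjusted p was 0.0759 from limma with the block and 0.127 without it. It was under the threshold with array weights (0.0386), with an intensity trend (0.0486) and without culture 4 (0.0449), where the difference was 0.73.

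Its paralog Eif4ebp2, for the 4E-BP that is abundant in brain, had a difference near 0. Log2 intensity was 9.29, 9.43 and 9.48 in hypoxia and 9.23, 9.44 and 9.30 in normoxia. The arrays overlapped, and culture 4 was marginally lower in hypoxia. The mean difference was 0.07 (95% interval -0.09 to 0.24, adjusted p = 0.614 from limma), an interval that ends below the difference of Eif4ebp1. The difference between the paralogs was 0.33, 0.94 and 0.90 in the 3 cultures, with a mean of 0.72 ± 0.34 (SD, n = 3). It was above 0 in 3 of 3 cultures, and its exact sign-flip p of 0.25 is the smallest that 3 cultures allow. Eif4ebp3 shares its feature with Ankhd1 and was not named here.

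Rheb encodes the GTPase that activates mTORC1 and is the target of TSC1-TSC2, so it is the one accelerator among these genes. It sits at chr5:24802823-24842361. Log2 intensity in cultures 3, 4 and 6 was 9.99286, 9.62 and 9.72 under hypoxia, against 10.29, 9.99995 and 10.10 under normoxia. All hypoxia arrays lay below all normoxia arrays, though culture 3 in hypoxia and culture 4 in normoxia almost touched. Within cultures the differences were nearly equal, -0.30, -0.38 and -0.38, with a mean of -0.35 (standard error 0.06, 95% interval -0.50 to -0.20). This is a fold of 1.28 of normoxia over hypoxia. The adjusted p was 0.0857 from limma with the block and 0.415 without it, and the means of the cultures differed by 0.33, about as much as the conditions. With array weights, the only alternative in which Rheb passed, the adjusted p was 0.0495. The difference was -0.27 after quantile normalization (adjusted p = 0.152 from limma) and -0.27 after cyclic loess (0.146).

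Tsc1 and Tsc2, the subunits that together hold RHEB inactive, varied little. Tsc1 had 7.42, 7.53 and 7.41 in hypoxia and 7.51, 7.55 and 7.45 in normoxia, lower in all 3 cultures but by no more than 0.10. Its mean difference of -0.05 had a 95% interval of -0.20 to 0.10 (adjusted p = 0.675 from limma). Tsc2, the subunit with the GTPase-activating domain, had 9.24, 9.28 and 9.29 in hypoxia and 9.11, 9.16 and 9.25 in normoxia. It was higher in all 3 cultures, by 0.13, 0.12 and 0.04, with a mean of 0.09 and an interval of -0.06 to 0.25 (adjusted p = 0.485 from limma). Both sets of arrays overlapped. Tbc1d7, the further subunit of the complex, had a difference of -0.22 (adjusted p = 0.474 from limma), with -0.15, 0.14 and -0.64 in the 3 cultures.

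None of the 3 sestrin genes passed, and their differences did not share a direction. Sesn1 had a log2 intensity of 10.21, 10.20 and 10.34 under hypoxia in cultures 3, 4 and 6, against 10.45, 10.70 and 10.49 under normoxia, with no overlap. Its differences were -0.24, -0.50 and -0.15, with a mean of -0.30 (standard error 0.08, 95% interval -0.50 to -0.09) and an adjusted p = 0.184 from limma with the block and 0.389 without it. The mean was -0.19 after quantile normalization (adjusted p = 0.420 from limma) and -0.19 without culture 4 (0.569). Sesn2, whose product is a leucine sensor in human cells, had 8.75, 8.85 and 9.05 in hypoxia and 8.69, 8.39 and 8.76 in normoxia. The arrays overlapped, because culture 6 in normoxia lay above culture 3 in hypoxia, but each culture was higher in hypoxia, by 0.06, 0.46 and 0.30. The mean difference was 0.27 (standard error 0.09, 95% interval 0.06 to 0.49), with an adjusted p = 0.219 from limma with the block and 0.486 without it. Without culture 4 the difference was 0.18 (adjusted p = 0.645 from limma). Sesn3, a sestrin under FOXO control, had 7.17, 6.91 and 6.85 in hypoxia and 6.97, 6.81 and 6.89 in normoxia. Culture 3 was higher and culture 6 slightly lower in hypoxia, and the mean of 0.08 had an interval of -0.09 to 0.26 (adjusted p = 0.573 from limma). A second Sesn3 feature, dimmer by its mean, had a difference of 0.16 (standard error 0.17).

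The difference between hypoxia and normoxia was larger for Sesn2 than for Sesn1 by 0.30, 0.96 and 0.44 in cultures 3, 4 and 6, a mean of 0.57 ± 0.35 (SD, n = 3). The order held in 3 of 3 cultures, with an exact sign-flip p of 0.25, again the smallest possible. Sesn3 lay above Sesn1 by 0.38 on average, in 3 of 3 cultures (exact p of 0.25). Between Sesn2 and Sesn3 the mean difference of 0.19 was not one-sided, with culture 3 at -0.14 (exact p of 0.50).

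Deptor encodes the inhibitor that binds the kinase and is found at chr15:55112317-55259273. Log2 intensity was 7.08, 7.33 and 7.16 in hypoxia and 6.93, 7.48 and 7.01 in normoxia. Culture 4 was the highest in both conditions and the only one lower in hypoxia. The means of the cultures differed by 0.40, against a difference between conditions of 0.05 (95% interval -0.15 to 0.25, adjusted p = 0.762 from limma). With array weights, which gave culture 4 the most weight, that difference was -0.014.

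**Figure D3:**
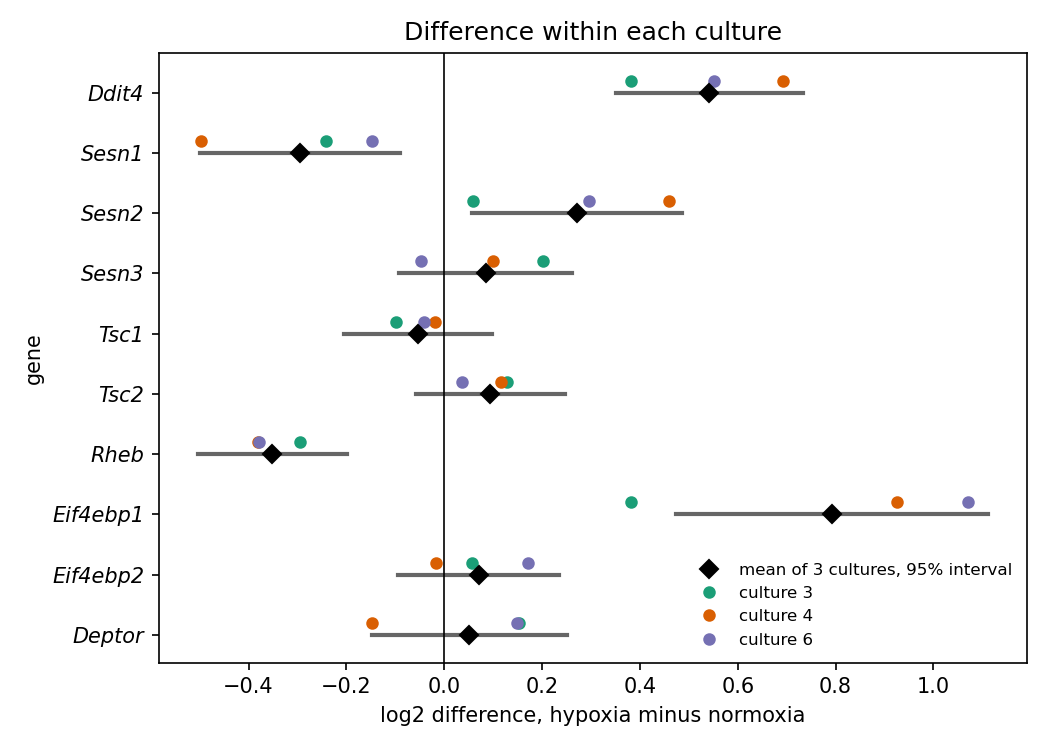
Log2 difference between hypoxia and normoxia (x axis) for each of the 10 genes, with a coloured point per culture and, below it, the mean and 95% interval from limma with the culture as a block. The intervals of Ddit4, Eif4ebp1 and Sesn2 lie above 0, those of Rheb and Sesn1 below 0, and the other 5 include 0; none of the 10 passed after adjustment over all genes.

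Over the 10 genes, the smallest difference in absolute size fell in culture 3 for 4, in culture 4 for 3 and in culture 6 for 3, and the largest fell in culture 3 for 4, in culture 4 for 4 and in culture 6 for 2. No culture stood apart in this count. Among the 4 genes whose arrays separated, the smallest was in culture 3 for Ddit4, Eif4ebp1 and Rheb and in culture 6 for Sesn1. The largest of these was in culture 4 for Ddit4 and Sesn1, in culture 6 for Eif4ebp1, and nearly equal in cultures 4 and 6 for Rheb. Over all 30176 genes, the smallest fell in culture 3 for 13890, in culture 4 for 9114 and in culture 6 for 7172, and the largest fell in culture 3 for 6414, in culture 4 for 9599 and in culture 6 for 14163. Culture 3 had the highest mean level of fibroblast and pericyte markers, as given above, and the part of this in the sizes was not tested. Without culture 3, the difference was 0.62 for Ddit4, 1.00 for Eif4ebp1 and -0.38 for Rheb, and none of the 10 genes passed (adjusted p from limma 0.183, 0.105 and 0.210 for these genes).

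Around these brakes, most of the mTORC1 pathway differed little. Of 93 further genes listed, 84 had a feature of their own. With the block 3 of the 84 were higher and 0 were lower, against 0.421% and 0.116% of all genes, and without it only Bnip3 was higher and 0 were lower. Bnip3 is also among the 8 HIF-responsive genes used above as a check of the treatment, so it was counted there as well. Before adjustment, 15 of the 84 had a limma p under 0.05 with the block, against 5111 of all 30176 genes. The median difference of the 84 was 0.03, the same as over all genes, and 54.8% of them were above 0, against 59.7% of all genes.

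Bnip3, a mitophagy receptor that has been found to bind RHEB, was 2.44 higher in hypoxia, with a standard error of 0.07 and an adjusted p = 0.000183 from limma with the block (0.000844 without it). Across cultures 3, 4 and 6 it had 10.91, 11.05 and 10.50 under hypoxia and 8.36, 8.61 and 8.18 under normoxia, far apart in every culture.

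Prkab2, a regulatory beta subunit of the energy sensor AMPK, rose by 0.45 (standard error 0.06 with the block, adjusted p = 0.0496 from limma). Its values were 7.50, 7.40 and 7.36 in hypoxia and 7.04, 6.93 and 6.95 in normoxia. The conditions were apart and the cultures close together, yet the gene lay at the threshold and had an adjusted p = 0.0910 without the block. It did not pass once any 1 culture was left out (0.200 without culture 3, 0.0981 without culture 4 and 0.0778 without culture 6, from limma), nor after median centring or cyclic loess. The size of the difference changed little in the fits with fewer cultures. It was 0.44 without culture 3, 0.44 without culture 4 and 0.47 without culture 6. None of the other 9 genes for AMPK subunits, LKB1 and its partners passed, and the catalytic subunit gene Prkaa1 had a difference of -0.19 (adjusted p = 0.320 from limma).

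Grb10, an adaptor that mTORC1 phosphorylates and that dampens insulin and IGF receptor signalling, rose by 0.56 (standard error 0.07 with the block, adjusted p = 0.0391 from limma). It had 7.95, 6.83 and 6.73 in hypoxia and 7.27, 6.31 and 6.24 in normoxia. Culture 3 stood above the other cultures in both conditions. It did so too for the mean level of fibroblast and pericyte markers, though not for Rgs5 and Cspg4 among them. The mean levels of astrocyte and endothelial markers were likewise highest in culture 3 in both conditions, and those of oligodendrocyte lineage and neuronal markers were lowest there. The conditions overlapped, and the adjusted p was 0.627 without the block. Without culture 3 the difference was 0.50 (adjusted p = 0.194 from limma), and median centring and cyclic loess also put it above the threshold. The part of any of these cell types in the Grb10 values was not tested.

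Median differences of the lists with a gene past the threshold were -0.05 for AMPK and LKB1, 0.05 for the outputs on translation, ribosome and autophagy and 0.12 for other brakes, the list of Bnip3. The remaining lists held no such gene. Rag GTPases and Ragulator, which dock mTORC1 on the lysosome, had a median difference of -0.07 and a range of -0.22 to 0.06. Of these, 3 of 13 genes were above 0, against 59.7% of all genes. Most of the 13 were in the brightest of 4 equal groups of genes, which also had a median difference of -0.07. GATOR complexes and amino acid sensors had a median of 0.01 over 12 genes and a range of -0.14 to 0.17. Subunits and assembly factors of the mTOR complexes had a median of 0.03 over 8 genes, with Mtor itself at 0.03 and Rptor, for the mTORC1 scaffold RAPTOR, at 0.06. In the list of PI3K and AKT input, 9 of 12 were above 0, with a median of 0.08 and the highest value, 0.31, in Irs1, an insulin receptor substrate (adjusted p = 0.306 from limma). Among the outputs other than Grb10, the cap-binding factor gene Eif4e had a difference of -0.01 and the autophagy kinase gene Ulk1 one of 0.19 (adjusted p = 0.231 from limma).

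Genes for factors known to act on Ddit4 and the sestrins were measured as well. Of 10 listed, Trp53 had no feature of its own and was not measured here. Of the other 9, 0 passed. Foxo3 was nearest, with 0.25 (adjusted p = 0.149 from limma) and no overlap between conditions. Atf4, the factor of the amino acid response, had 0.11 and Hif1a, the oxygen-regulated HIF subunit, had -0.24 (adjusted p = 0.563 and 0.251 from limma). These are transcript levels and do not measure the proteins.

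**Figure D4:**
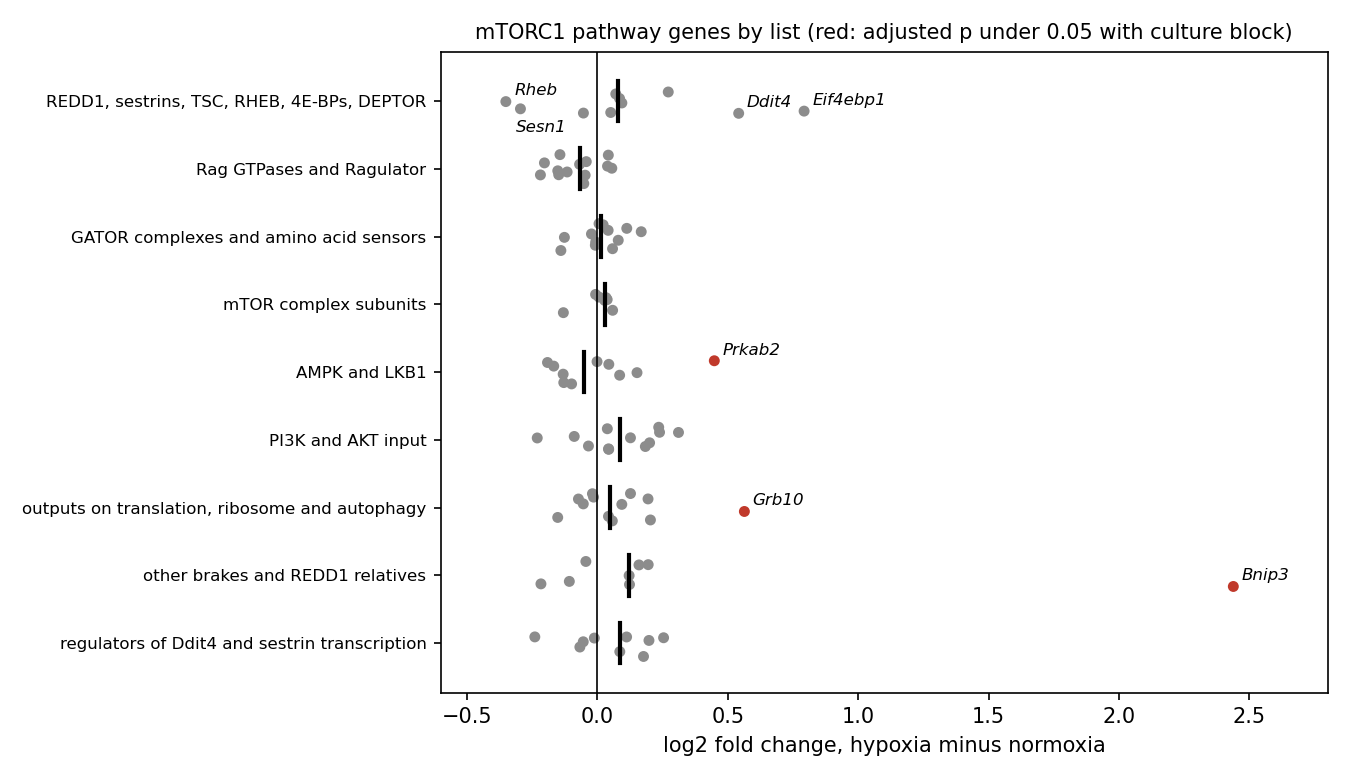
Log2 fold change of hypoxia over normoxia (x axis) for the 10 genes in the top row and 84 further mTORC1 pathway genes by list below, 1 point per gene, with a black bar at each median and vertical scatter for legibility only. Points in red, Bnip3, Grb10 and Prkab2, had an adjusted p under 0.05 from limma with the culture as a block, and most others lie within 0.3 of 0.

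To place Ddit4 among all genes, its profile over the 6 arrays was compared with that of 17856 others after each gene's own mean was subtracted. The 5 nearest, by root mean square difference in log2 units, were Atf3 (0.04), Aldoa (0.07), Il15 (0.08), Pkm (0.08) and Zfp691 (0.08). Atf3 is a stress-induced transcription factor, Aldoa and Pkm are enzymes of glycolysis, and Il15 is a cytokine. Their own differences between hypoxia and normoxia ran from 0.40 for Zfp691 to 0.51 for Atf3. The measure picks genes with a difference of similar size, so this range follows from the choice. The likeness rests on 6 arrays that share 3 cultures and is a description.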

How the data were processed

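Gene expression was measured on one-colour arrays of 3 hypoxia and 3 normoxia samples of primary microglia. The deposited values are log2 intensities made by the authors with RMA, which corrects background, aligns the arrays by quantiles and summarises the probes of each feature. Affymetrix Expression Console, limma and the build mm10 appear beside RMA in the submitters' processing notes, with no version given in the sources used here. Values were used as deposited. Of 72688 features, 30638 had 1 gene symbol in the platform annotation. Where a gene had several (354 genes, Sesn3 among them), the brightest by mean was kept, which gave 30176 genes.

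Hypoxia minus normoxia was tested in limma 3.58.1 (lmFit, then eBayes; R 4.3.3), with the culture as a block, no filter and a threshold of 0.05. The labels give both arrays of a culture the same number. As a check of this pairing, residuals about the condition means correlated at 0.57, 0.40 and 0.22 within cultures and at -0.50 to 0.14 between them. Residuals about a mean of 3 arrays cancel out, so positive values within cultures lower those between them, and the contrast is partly built in. The fit was tested on simulated data. Signal over background was not given. There were 3 arrays per condition, and their number limits the precision. All 10 genes, 93 further pathway genes and the markers were chosen with earlier results of these data known. The genes named are all 10, each pathway gene that passed in either fit, the paralogs Ddit4l and Eif4ebp3, HIF-responsive genes used as a check, and the 5 genes nearest to Ddit4, predicted and small RNA transcripts left out; any other was picked after its values were seen. Paralogs were compared by an exact sign-flip test over cultures. Alternatives are given in the closing section.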

Additional observations from a re-analysis of the deposited data

How the results depend on the processing

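Among the 10 genes, directions held under all alternatives except that of Deptor, which was -0.014 with array weights. Without the replicate block the differences were the same and none of the 10 genes passed. Ddit4 passed with genes of a mean log2 value under 5 left out (0.54), with array weights (0.59) and with an intensity trend in the variance (0.54), Eif4ebp1 with array weights (0.82) and the trend (0.79), and Rheb with array weights (-0.36). The array weights were 1.82 for culture 4, 0.80 for culture 3 and 0.68 for culture 6, so that fit leaned most on culture 4. Without 1 culture in turn, Eif4ebp1 lay between 0.65 and 1.00 and passed only without culture 4. None of the 10 genes passed after median centring, quantile normalization, cyclic loess, over all named features, or without culture 3 or 6. The count of all genes higher in hypoxia, 127 with the block and the deposited values, was 63 without the replicate block, 80 after median centring, 249 with array weights, 214 with the trend and 17 (without culture 3) to 135 with 1 culture left out. That of lower genes, 35, was 5, 19, 144 and 117 under the first 4 of these, 17 after cyclic loess, 74 without dim genes and 1 (without culture 3) to 94 (without culture 4) with 1 left out. Of the further pathway genes, of which 3 were higher with the block, 1 was higher without the replicate block, after median centring and after cyclic loess, and 1 to 2 without 1 culture, Bnip3 each time. Where dim genes are left out, fewer genes are adjusted for; otherwise the cause was not tested. The brightest of 4 equal groups of genes, which holds Sesn1, Sesn2, Tsc2, Rheb, Eif4ebp1 and Eif4ebp2, had a median difference of -0.07, and the next one, which holds Ddit4, Sesn3, Tsc1 and Deptor, 0.03.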
